A study of Rattus norvegicus with 65 samples.

Results

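Glutathione transferases join the tripeptide glutathione to reactive, electrophilic compounds, which makes these compounds more soluble and lets the cell export them. Several members also reduce lipid peroxides or keep protein thiols reduced, and the family is best known from the liver, where it conjugates the reactive product of acetaminophen. The soluble members fall into classes named by Greek letters (alpha, mu, pi, theta, omega), the kappa enzyme lies in mitochondria and peroxisomes, and the microsomal members are membrane proteins. In the heart the family has been studied for its part in the handling of lipid aldehydes and of oxidative stress. Many members are targets of the transcription factor NRF2, which binds the antioxidant response element.

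The members were chosen by symbol: Gstm1, Gstm2, Gstp1, Gsta4, Gstk1, Gsto1, Gstt1, Gstt2, Mgst1 and Mgst3, which is 10 genes, of which 9 were analysed among 14554 genes in all. Gstm2 was not analysed here. All cells were primary neonatal rat cardiomyocytes, that is muscle cells taken from the hearts of newborn rats and cultured, given 10 mM 5FU (fluorouracil, a pyrimidine analog used against tumors), 2.5 mM Ace (acetaminophen, a pain reliever) or 1.25 μM Dox (doxorubicin, an anthracycline used against tumors) for 6 or 24 h. The controls were DMSO1, at the higher DMSO concentration, used for the 5FU condition, and DMSO2, at the lower concentration used with Ace and Dox, so that every group including the controls received DMSO. The 65 libraries form 10 groups, with 6 libraries each for 5FU and DMSO1 at both times and for Ace at 6 h, and 7 libraries each for the others. Since hearts of more than 1 litter were pooled into the preparation, replicate libraries stand for separate wells of the same cells, and the tests measure the spread between wells and not between animals.

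Library totals ran from 14332827 to 25738297 estimated counts. The highest total was that of library 7 of Dox at 24 h, a group with a median total of 16492469. The 9 members had at least 33 counts in every library, a low reached by Gstt1, and Gstp1 had up to 10736. Levels are given in CPM, counts scaled to a common library size with TMM factors, and are not compared between genes because the values are not per length. The label of the cells was checked with markers: 9 of 10 listed cardiomyocyte markers were in the table, and their summed level was between 30320 and 41220 CPM in the control libraries. The cultures also carried fibroblast markers, with 9 of 9 in the table and a summed level of 6604 to 19970 CPM in the controls. Hepatocyte markers, of which 2 of 5 were in the table, summed to no more than 2.7 CPM in any library. In bulk RNA, fewer cells of a type and less RNA per cell cannot be told apart.

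RefSeq promoters of the rat assembly GRCr8 were at hand for 7 of the 9 members, and the 150 bases before the transcription start are shown for the member that rose under Ace and Dox and for the 2 with the largest falls under Dox, with capitals marking the motif matches described next.
Gstp1: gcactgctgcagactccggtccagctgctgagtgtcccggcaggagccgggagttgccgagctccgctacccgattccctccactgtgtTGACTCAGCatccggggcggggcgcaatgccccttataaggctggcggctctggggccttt
Mgst1: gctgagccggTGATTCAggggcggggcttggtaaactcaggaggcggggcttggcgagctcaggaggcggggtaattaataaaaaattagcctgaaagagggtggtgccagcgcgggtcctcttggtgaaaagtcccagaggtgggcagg
Gstm1: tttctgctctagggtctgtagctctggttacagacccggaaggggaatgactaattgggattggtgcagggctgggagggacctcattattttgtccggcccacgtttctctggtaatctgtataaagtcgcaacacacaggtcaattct

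The Gstp1 sequence is chr1:210769706-210769855 on the minus strand, the Mgst1 sequence chr4:172760780-172760929 on the plus strand, and the Gstm1 sequence chr2:198343384-198343533 on the minus strand. The core of the antioxidant response element was searched as TGACNNNGC on both strands, over the 250 bases before and 50 after each start. Among the 7 members Gstp1 held it, 61 bases before the start, and 12.1% of the 33469 promoters in the table held it. The related AP-1 element was searched in a loose form, TGANTCA with any base in the middle, on both strands. A match lay at the same place in Gstp1, where it shares its 7 bases with the longer motif. Mgst1 held a match to the loose form, TGATTCA, 140 bases before its start and Gsto1 held a match after its start, against 7.33% of all promoters. Gstm1, Gstk1, Gsta4 and Mgst3 held neither set of letters in this window. These matches describe letters and were not tested for binding.

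Over the 10 groups the members differed in how far their level moved. Mgst1 had the widest range of group means, from 17.6 CPM in Dox at 24 h to 63.3 CPM in Ace at 24 h, which is 3.59-fold. Gstt2 ranged 2.74-fold, Gstt1 2.64-fold, Gstm1 2.13-fold, Gstp1 2.12-fold and Gsto1 2.03-fold. Gsta4 ranged 1.87-fold, Mgst3 1.59-fold and Gstk1 1.36-fold. Dox at 24 h was the lowest group for Mgst1, Gstm1 and Gsta4.

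**Figure D1:**
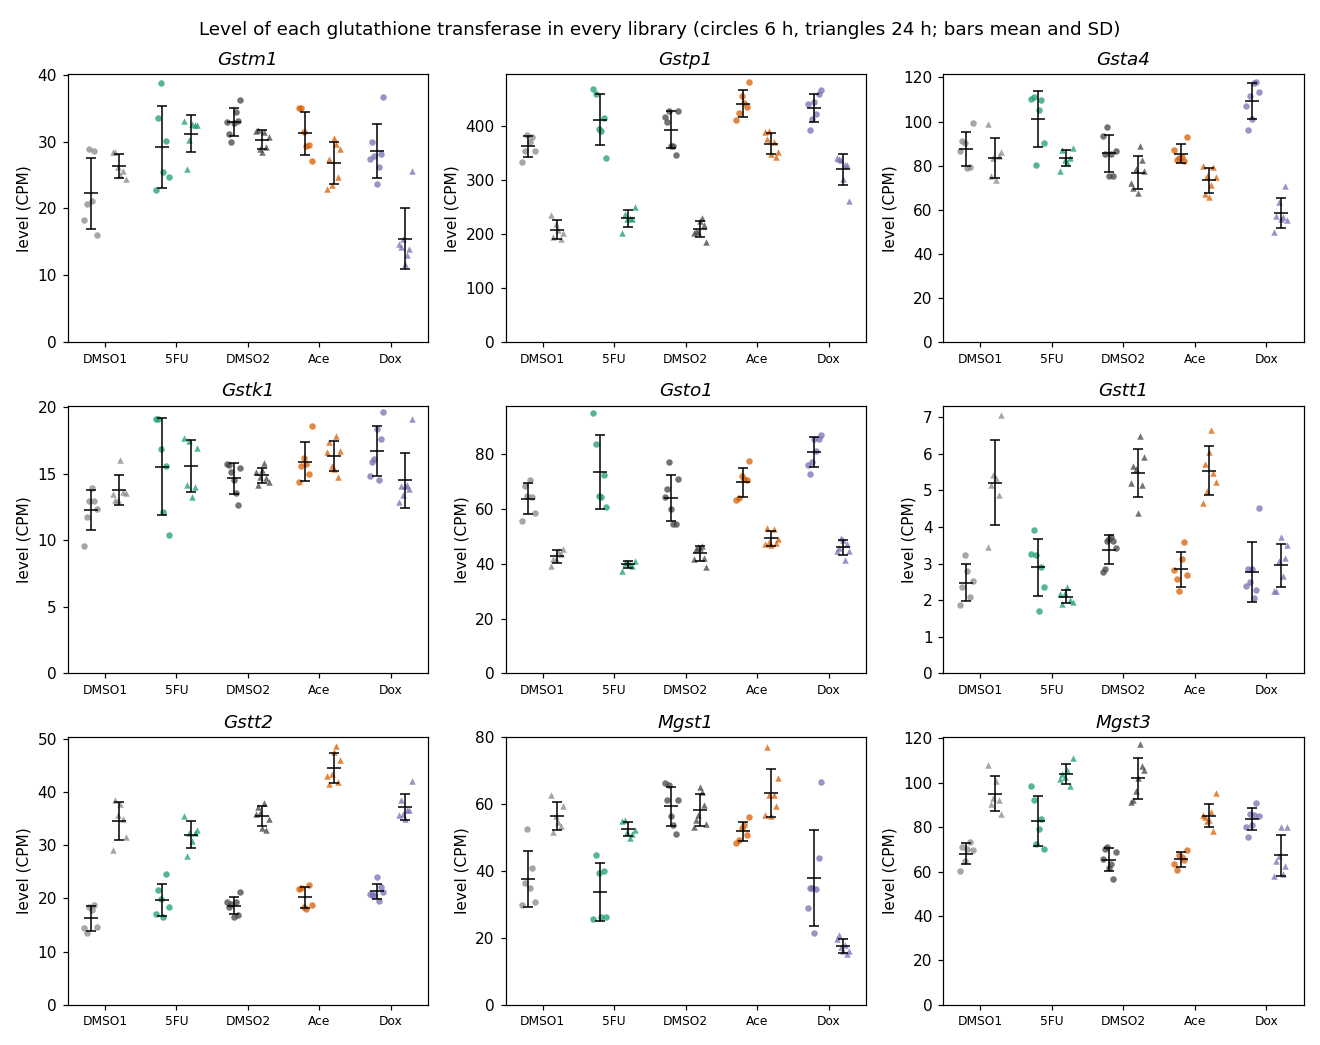
Level of the 9 analysed members in each of the 65 libraries, in CPM from 0, by treatment, with circles for 6 h, triangles for 24 h, and black bars for the group mean and SD. Mgst1 and Gstm1 are lowest in Dox at 24 h, Gstp1 falls between 6 and 24 h in the controls and stays higher under Ace and Dox, and Gstt1 is lowest in 5FU at 24 h.

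Between 6 and 24 h in the controls the theta-class members and Mgst3 rose and Gstp1 and Gsto1 fell. Taking the mean of the 2 controls, 4 members were higher and 2 lower at 24 h, 6 of 9, where 64.6% of all genes were called, so the members' share is near that of all genes. A call is an FDR below 0.01, the FDR being the Benjamini-Hochberg adjusted p of edgeR's quasi-likelihood test over all 14554 genes. Gstt2 and Gstt1, theta-class enzymes that act on small halogenated compounds and lie close together on chromosome 20, rose by 1.01 (SE 0.053, FDR = 5.4e-26) and 0.88 (SE 0.10, FDR = 2.3e-11) on the log2 scale. Mgst3, a microsomal enzyme with glutathione peroxidase activity, rose by 0.56 (SE 0.048, FDR = 2.4e-16). Mgst1, the microsomal transferase of the endoplasmic reticulum and outer mitochondrial membrane, rose by 0.28 (SE 0.091, FDR = 0.0048). That value is a mean over 2 controls that differed. The group mean of Mgst1 went from 37.5 to 56.4 CPM in DMSO1 and from 59.4 to 58.3 CPM in DMSO2. The Mgst1 call was lost without DMSO1 library 6 at 24 h, or without DMSO1 library 1, DMSO1 library 6 or DMSO2 library 6 at 6 h, with values between 0.24 and 0.26.

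Gstp1, the pi-class enzyme, fell by 0.85 (SE 0.044, FDR = 3.1e-26) over the same time, and Gsto1, the omega-class enzyme that reduces dehydroascorbate and mixed disulfides, fell by 0.56 (SE 0.051, FDR = 1.5e-15). In DMSO2 the Gstp1 level had a lowest, median and highest value of 346, 407 and 427 CPM at 6 h and 185, 205 and 229.5 CPM at 24 h. In DMSO1 it was 333, 362 and 384 CPM at 6 h and 191, 204 and 236 CPM at 24 h. In both controls every 6 h library was above every 24 h library. Gstm1, Gsta4 and Gstk1 did not pass the test between the times, with log2 values of 0.06, -0.11 and 0.10. For Gstm1 the group mean went from 22.25 to 26.35 CPM in DMSO1 and from 32.95 to 30.29 CPM in DMSO2. The time difference was not tested in each control alone.

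The 2 controls differed in the members at 6 h and not detectably at 24 h. At 6 h, DMSO1 was lower than DMSO2 in 2 members, against 16.5% of all genes called. Mgst1 had 29.8, 35.7 and 52.5 CPM (lowest, median, highest) in DMSO1 and 51.0, 61.3 and 66.2 CPM in DMSO2. The groups overlapped through DMSO1 library 3, and the difference was -0.66 (SE 0.13, FDR = 7.5e-05). Gstm1, a mu-class enzyme that conjugates epoxides and aldehydes, had 16.0, 20.8 and 28.9 CPM in DMSO1 and 30.0, 32.9 and 36.3 CPM in DMSO2, without overlap (log2 difference -0.57, SE 0.12, FDR = 0.00014). In the same comparison 6 of 7 endothelial markers were lower in DMSO1, with sums of 147 to 201 CPM against 237 to 292 CPM. Of the fibroblast markers 7 of 9 were lower, with sums of 6604 to 11050 CPM against 9789 to 14590 CPM, and their part in the 2 differences was not tested. At 24 h no member passed edgeR's test, none had an unadjusted p below 0.05, and edgeR called 0.433% of all genes. DESeq2 also called 0 members, against 181 of all genes.

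5FU at 24 h was lower than DMSO1 in a single member, Gstt1, against 55.8% of all genes called. Gstt1 had 1.91, 2.08 and 2.36 CPM in 5FU and 3.45, 5.24 and 7.05 CPM in DMSO1. Every 5FU library lay below every control library, and the level was 2.47-fold lower (log2 -1.31, SE 0.16, FDR = 1.2e-10). The neighbouring Gstt2 had 28.0, 32.3 and 35.6 CPM against 29.2, 35.3 and 38.4 CPM, so the groups overlapped and the difference of -0.11 (SE 0.075, FDR = 0.18) did not pass. The other 7 members lay between -0.10 and 0.24. Gstt3, a further theta-class gene beside them, was also lower (log2 -0.51, SE 0.17, FDR = 0.0068). The summed fibroblast markers were 5207 to 5872 CPM in 5FU and 10030 to 19970 CPM in DMSO1, and the cardiomyocyte markers 22110 to 24400 and 30320 to 35700 CPM. Their part in the Gstt1 difference was not tested.

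At 6 h, 5FU was higher than DMSO1 in 4 members, against 47.9% of all genes called, and in each of them the groups overlapped. Gstm1 was higher by 0.39 (SE 0.12, FDR = 0.0041), Gstk1 by 0.34 (SE 0.099, FDR = 0.0026), Mgst3 by 0.28 (SE 0.071, FDR = 0.00055) and Gstt2 by 0.27 (SE 0.079, FDR = 0.0024). Gstk1 is the kappa-class enzyme of mitochondria and peroxisomes. The control of this comparison, DMSO1 at 6 h, had the lowest mean of the 10 groups for Gstk1 (12.3 CPM) and Gstt2 (16.2 CPM). Its Gstm1 mean, 22.25 CPM, was above that of Dox at 24 h alone. The Gstm1 mean in 5FU at 6 h, 29.2 CPM, lay below that of DMSO2 at 6 h, 32.95 CPM. For Mgst3 the 2 controls at 6 h differed by 0.06 (FDR = 0.56 by edgeR's test). With only the compared groups in the fit 0 members passed, against 5314 of all genes. DESeq2 called 7 members, against 7135 of all genes. Of the 4 members Mgst3 alone passed in all 12 fits that left out 1 library. The count was 1 without 5FU library 2 or DMSO1 library 1, 2 without DMSO1 library 2 and 7 without 5FU library 6. The effect of 5FU differed between the times for 2 members, against 39.5% of all genes: Gstt1 (24 h minus 6 h -1.52, SE 0.23, FDR = 6.8e-08) and Gstt2 (-0.39, SE 0.11, FDR = 0.0023), the second of which was lost without 5FU library 5 at 6 h (-0.32, FDR = 0.011).

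Ace at 24 h was higher than DMSO2 in Gstp1 and Gstt2 and lower in Mgst3, so 3 of 9 members passed against 37.2% of all genes. Gstp1 had 343, 370.1 and 389.7 CPM in Ace and 185, 205 and 229.5 CPM in DMSO2. All 7 Ace libraries were above all 7 controls, and the level was 1.75-fold higher (log2 0.81, SE 0.060, FDR = 4.5e-18). Gstt2 had 41.4, 43.3 and 48.6 CPM in Ace and 32.8, 35.9 and 37.9 CPM in DMSO2, again without overlap and 1.26-fold higher (log2 0.33, SE 0.068, FDR = 4.8e-05). Mgst3 had 78.2, 84.5 and 95.5 CPM against 91.5, 102 and 118 CPM, with overlap (log2 -0.26, SE 0.065, FDR = 0.00067). Gsto1 libraries did not overlap either, with 46.6 to 53.1 CPM against 38.8 to 46.2 CPM, but the difference of 0.17 had an FDR of 0.039. In the same comparison the summed fibroblast markers were 7315 to 9343 CPM in Ace and 15170 to 18970 CPM in DMSO2, and their part in these differences was not tested.

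At 6 h no member passed edgeR's test under Ace, against 31.7% of all genes called. One value had an unadjusted p below 0.05, that of Gstp1 (log2 0.17, SE 0.061, FDR = 0.023). DESeq2 called 0 members, against 4807 of all genes. Gstp1 had 410.1, 438 and 481 CPM in Ace and 346, 407 and 427 CPM in DMSO2, so the groups overlapped. Gstp1 was also the 1 member whose Ace effect differed between the times, by 0.64 (SE 0.086, FDR = 2.7e-08), against 11.6% of all genes. Its level in Ace at 24 h, 367 ± 19.2 CPM (SD, n = 7), lay between that of DMSO2 at 24 h, 209 ± 15.2 CPM (n = 7), and that of DMSO2 at 6 h, 393 ± 34.4 CPM (n = 7).

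Under Dox at 24 h Mgst1, Gstm1, Gstt1, Mgst3 and Gsta4 were lower than in DMSO2 and Gstp1 was higher. These 6 of 9 members are a smaller share than the 81.4% of all genes called, and the median member was at -0.39 against 0.0028 for all genes. Mgst1 had 15.2, 17.4 and 21.0 CPM in Dox and 53.3, 56.7 and 65.3 CPM in DMSO2. All 7 Dox libraries lay below all 7 controls, and Mgst1 was 3.31-fold lower (log2 -1.73, SE 0.13, FDR = 6e-19). Gstm1 had 11.7, 14.3 and 25.5 CPM against 28.4, 30.7 and 31.8 CPM. The groups did not overlap, although Dox library 7 stood above the other Dox libraries, and the difference was -0.95 (SE 0.11, FDR = 2.4e-11), or -1.11 without that library. Gstt1 had 2.25, 3.08 and 3.73 CPM against 4.39, 5.59 and 6.48 CPM, without overlap (log2 -0.89, SE 0.14, FDR = 5.4e-08).

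Mgst3 and Gsta4 were lower by less under Dox at 24 h. Mgst3 had 58.2, 64.8 and 80.0 CPM in Dox and 91.5, 102 and 118 CPM in DMSO2, without overlap (log2 -0.60, SE 0.066, FDR = 1.1e-12). Gsta4, the alpha-class enzyme that conjugates aldehydes formed in lipid peroxidation, had 50.1, 56.9 and 70.9 CPM against 67.7, 77.7 and 88.8 CPM, with overlap (log2 -0.39, SE 0.070, FDR = 7.6e-07). Gstp1 went the other way, with 260.5, 328 and 340.5 CPM in Dox and 185, 205 and 229.5 CPM in DMSO2. Every Dox library was above every control, 1.52-fold on average (log2 0.61, SE 0.060, FDR = 1.8e-14). Gstk1, Gsto1 and Gstt2 did not pass, with -0.03, 0.07 and 0.07.

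These Dox libraries also differed in the markers. The 9 cardiomyocyte markers summed to 11980 to 15200 CPM in Dox and 31780 to 41220 CPM in DMSO2 at 24 h, with 8 of 9 lower. The 9 fibroblast markers summed to 1959 to 4143 CPM and 15170 to 18970 CPM, with 8 of 9 lower. The 7 endothelial markers, all lower, summed to 23.5 to 52.2 CPM against 269 to 360 CPM, and the 8 macrophage markers, all lower, to 42.0 to 59.4 CPM against 108 to 134 CPM. Of the smooth muscle markers 3 of 4 were higher, with sums of 307 to 1579 CPM against 433 to 607 CPM. The 3 red blood cell markers were all higher, with sums of 92.5 to 126 CPM against 12.3 to 18.6 CPM. Most of the Dox sum was Slc4a1, with a mean of 72.8 CPM against 4.94 CPM. Hba-a1 had 24.2 against 6.97 CPM and Hbb 12.5 against 4.13 CPM. No marker of these lists was at 0 in every library of a group. Their part in the changes of the members was not tested.

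**Figure D2:**
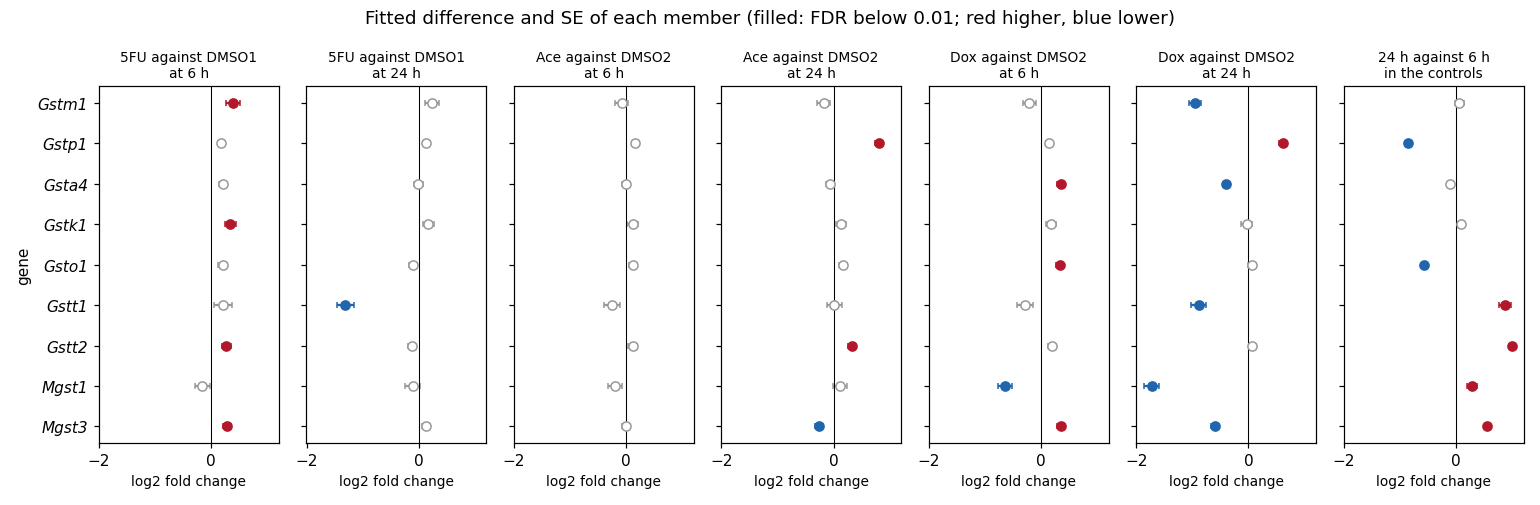
Fitted log2 fold change and SE of each of the 9 members in the 6 drug comparisons and between 24 h and 6 h in the controls, with filled points for an FDR below 0.01 (red higher, blue lower). Among the filled points under Dox at 24 h, 5 lie to the left of 0 and Gstp1 to the right, and under Ace at 24 h Gstp1 lies farthest to the right.

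At 6 h of Dox, 3 members were higher and 1 lower than DMSO2, against 64.2% of all genes called. Mgst3 had 75.6, 84.9 and 91.0 CPM in Dox and 56.6, 65.5 and 71.2 CPM in DMSO2, without overlap (log2 0.35, SE 0.066, FDR = 2.9e-06). Gsta4 was higher by 0.35 (SE 0.069, FDR = 7.5e-06) and Gsto1 by 0.33 (SE 0.067, FDR = 1.4e-05), both with overlap. Mgst1 had 21.5, 34.9 and 66.7 CPM against 51.0, 61.3 and 66.2 CPM. Dox library 7 held the highest of these values while the other Dox libraries ended at 43.9 CPM, and the difference of -0.65 (SE 0.12, FDR = 5.8e-06) was -0.84 (FDR = 9.4e-10) without it. Without that library Gstt1 also passed, at -0.44 (FDR = 0.0056), and Gstt2 passed without DMSO2 library 7, at 0.23 (FDR = 0.006). With library size in place of TMM, which moved the median of all genes by -0.15, 2 members were higher and 3 lower: Gsto1 (0.18) no longer passed and Gstm1 (-0.36, FDR = 0.0044) and Gstt1 (-0.44, FDR = 0.0083) did. Of all genes 9062 were called with library size. With library 7 of both Dox groups left out, an alternative chosen after the values were seen, 3 members were higher and 3 lower at 6 h, and 1 higher and 5 lower at 24 h. That fit called 9318 of all genes at 6 h and 11755 at 24 h.

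Markers moved at 6 h of Dox too. All 7 endothelial markers were lower than in DMSO2, with sums of 81.2 to 124 CPM against 237 to 292 CPM. Of the fibroblast markers 6 of 9 were lower and 1 was higher, with sums of 7899 to 10340 CPM against 9789 to 14590 CPM, and all 4 smooth muscle markers were higher, with sums of 1046 to 3195 CPM against 713 to 1107 CPM. Their part in the fall of Mgst1 was not tested.

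For 6 members the Dox effect at 24 h differed from that at 6 h, against 64.8% of all genes. Mgst3 and Gsta4 were higher at 6 h and lower at 24 h, with differences of -0.95 and -0.74. The difference was -1.08 for Mgst1, -0.75 for Gstm1 and 0.46 for Gstp1. The Gstt1 difference of -0.61 was -0.45 (FDR = 0.032) without Dox library 7 at 6 h, and it also lost its call without Dox library 1, 2 or 5 at 24 h, DMSO2 library 5 at 24 h or DMSO2 library 1 or 2 at 6 h, and with library size in place of TMM (-0.41, FDR = 0.072).

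The effects of the drugs at 24 h were compared directly. Ace and Dox share the DMSO2 libraries. The Dox effect was below the Ace effect in 7 members, against 80.6% of all genes. The largest of these differences was that of Mgst1 (-1.84, SE 0.13, FDR = 3.1e-20), followed by Gstt1 (-0.90) and Gstm1 (-0.78). For Gstp1, higher under both, the difference was -0.20 (SE 0.059, FDR = 0.0016), and it no longer passed without Dox library 7 (-0.14, FDR = 0.027), Dox library 4 or Ace library 1 or 3, nor with DESeq2's size factors (-0.15, FDR = 0.016) or its Wald test (adjusted p = 0.014). Against the 5FU effect, the Dox effect was lower in Mgst1 (-1.62), Gstm1 (-1.19), Mgst3 (-0.72) and Gsta4 (-0.39) and higher in Gstp1 (0.47), 5 members against 71.1% of all genes. The Ace effect was above that of 5FU in Gstt1 (1.32), Gstp1 (0.67) and Gstt2 (0.44) and below it in Mgst3 (-0.39), 4 members against 37.3% of all genes. The doses differ, so these values compare the treatments as given.

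The mu class has near-identical genes that lie side by side on chromosome 2 and can exchange reads in the assignment to transcripts. Of the counts in the 4 Gstm rows, Gstm7 held 55.8%, Gstm1 23.4%, Gstm4 20.6% and Gstm6 0.218%. Summed, the class was lower under Dox at 24 h (log2 -0.89, SE 0.081, FDR = 9.8e-16), higher under 5FU at 6 h by 0.38 (SE 0.087, FDR = 0.00017) and lower in DMSO1 than in DMSO2 at 6 h (log2 -0.43, SE 0.084, FDR = 7.4e-05). Each has the direction of Gstm1 alone. Between the times in the controls the sum rose by 0.45 (SE 0.059, FDR = 5.3e-10) and Gstm7 by 0.72 (SE 0.066, FDR = 3.6e-15), where Gstm1 alone was at 0.06.

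At 6 h Mgst1 differed between libraries of a group mainly in Dox, 5FU and DMSO1, with an SD of 37.9%, 25.6% and 22.3% of the mean. It was 9.87% in DMSO2 and 5.62% in Ace. For Gstm1 the SD was 14.1%, 20.9% and 24.1% of the mean in Dox, 5FU and DMSO1, and 6.17% and 10.3% in DMSO2 and Ace. The smooth muscle markers Myh11, Cnn1, Tagln and Acta2, all 4 in the table, also differed between libraries of Dox, 5FU and DMSO1. At 6 h their sum was mostly Acta2 and Tagln, with means of 1498 and 900 CPM in DMSO1, against 227 for Cnn1 and 12.8 for Myh11. From Dox at 6 h to 24 h Myh11 went from 30.6 to 90.2 CPM. Acta2 went from 1378 to 287, Tagln from 890 to 587 and Cnn1 from 295 to 247 CPM. Whether the sum follows the amount of smooth muscle was not tested. In Dox at 6 h the markers summed to 1046 CPM in library 7, which had the highest Mgst1, and to 2362 to 3195 CPM in the others. In DMSO1 at 6 h library 3 had the lowest sum, 889.9 CPM, with the highest Mgst1 (52.5 CPM) and Gstm1 (28.9 CPM). Libraries 1 and 6 of that group had the highest sums, 3708 and 4173 CPM, with the lowest Mgst1, 29.8 and 30.6 CPM.

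In 5FU at 6 h, libraries 2, 3 and 5 had sums of 1306 to 1531 CPM and Mgst1 of 39.4 to 44.8 CPM, and libraries 1, 4 and 6 had sums of 2440 to 2637 CPM and Mgst1 of 25.6 to 26.3 CPM. DMSO2 and Ace at 6 h had sums of 713 to 1107 and 576 to 759 CPM. In Dox at 24 h library 7 had a sum of 307 CPM against 1156 to 1579 CPM in the others, and the highest Gstm1. Mgst1 ran from 15.2 to 21.0 CPM over the libraries of that group. The part of the smooth muscle markers in the members' differences was not tested. The other marker lists were not set against the members library by library.

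**Figure D3:**
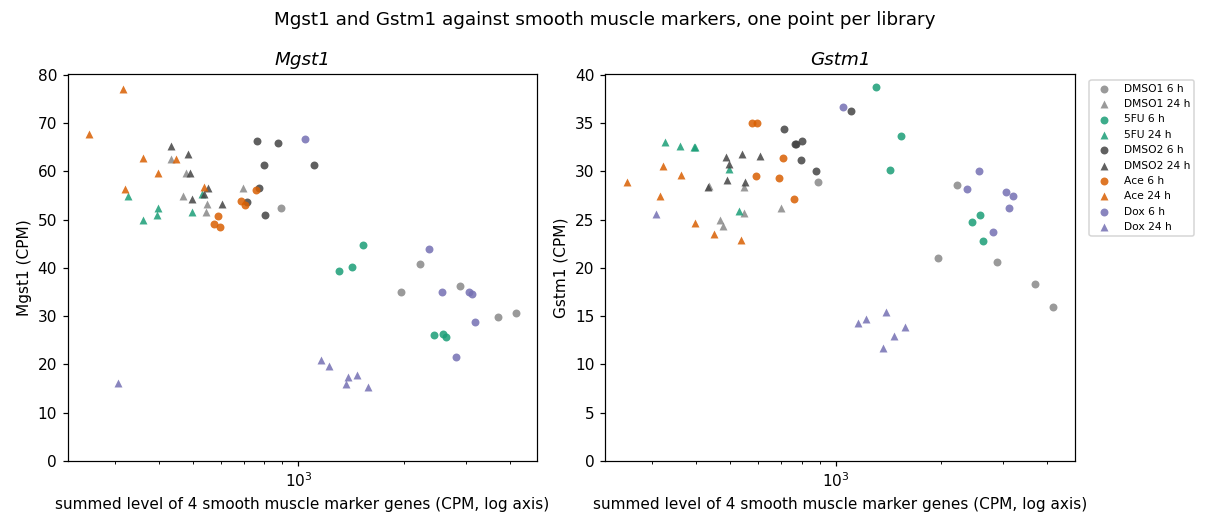
Level of Mgst1 (left) and Gstm1 (right) in CPM against the summed level of 4 smooth muscle marker genes on a log axis, with 1 point per library, colors for treatments, circles for 6 h and triangles for 24 h. At 6 h the libraries with the higher sums lie lower in Mgst1, and Dox at 24 h lies low in Mgst1 at every sum.

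The other glutathione transferases were counted from a list of 30, of which 19 were in the table. Under Dox at 24 h 2 were higher and 10 lower, where 81.4% of all genes were called, with a median of -0.67 against 0.0028 for all genes. Gsta5, an alpha-class gene, was higher by 1.95 (SE 0.13, FDR = 1.8e-21) and Gstt3 was lower (log2 -2.55, SE 0.18, FDR = 9.1e-21). Reads of Gsta5 can be shared with other alpha-class copies, so its values are uncertain. Under Ace at 24 h 2 were higher, Gstt3 (0.54) and Gsta5 (0.44), and 6 lower, against 37.2% of all genes, and under 5FU at 24 h 2 were higher and 5 lower, against 55.8%. Gsta5 fell by 2.64 between 6 and 24 h in the controls.

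The enzymes that make and recycle glutathione were counted from a list of 25, all in the table. Under Dox at 24 h 14 were higher and 8 lower, against 81.4% of all genes called. Under Ace at 24 h 8 were higher and 4 lower, against 37.2%, and under 5FU at 24 h 12 higher and 6 lower, against 55.8%. The medians were 0.29, 0.02 and 0.17 in that order. Gclc, the catalytic subunit of the rate-limiting step of glutathione synthesis, had mean levels of 25.0 CPM in DMSO2, 59.6 CPM in Ace and 189 CPM in Dox at 24 h. Its log2 difference was 1.25 (SE 0.065, FDR = 1.2e-24) under Ace and 2.92 (SE 0.066, FDR = 5e-46) under Dox. Gclm, its modifier subunit, was higher by 0.55 under Ace, 0.42 under Dox and 0.65 under 5FU. Gsr, which regenerates reduced glutathione, was higher under 5FU (0.96) and lower under Dox (-1.36). Slc7a11, the cystine transporter, was lower under 5FU (-1.60). At 6 h 13 of the list were higher and 8 lower under Dox, against 64.2% of all genes called. Under Ace 4 were higher and 2 lower at 6 h, against 31.7%, and under 5FU 10 higher and 3 lower, against 47.9%.

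NRF2 and its other targets were counted from a list of 29, of which 25 were in the table. At 24 h 18 were higher and 4 lower under Dox, against 81.4% of all genes called in either direction, with a median of 1.01 against 0.0028 for all genes. Under Ace 15 were higher and 1 lower, against 37.2%, with a median of 0.25, and under 5FU 11 higher and 2 lower, against 55.8%, with a median of 0.15. Under Dox the largest rises were those of Maff (3.48), Srxn1 (3.19) and Ephx1 (3.02). Nqo1, a quinone reductase, was higher by 2.66 under Dox, 1.26 under Ace and 1.20 under 5FU. Srxn1, which repairs oxidized peroxiredoxins, was higher by 1.55 under Ace and 1.37 under 5FU. Keap1, the protein that holds NRF2 in check, was lower under Dox (log2 -2.13, SE 0.047, FDR = 7.8e-47). In the controls 15 of the 25 fell and 2 rose between 6 and 24 h, against 64.6% of all genes called, Nqo1 by -2.17 and Srxn1 by -1.77. The order of the drugs was another at 6 h. There 16 were higher and 2 lower under 5FU, against 47.9% of all genes called, with a median of 0.30. Under Ace 9 were higher and 1 lower, against 31.7%, with a median of 0.13. Under Dox 9 were higher and 4 lower, against 64.2%, with a median of 0.12.

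The steps after conjugation, export and cleavage to mercapturates, were counted from a list of 22, of which 17 were in the table. At 24 h 4 were higher and 8 lower under Dox, against 81.4% of all genes called, 2 higher and 4 lower under Ace, against 37.2%, and 2 higher and 8 lower under 5FU, against 55.8%. Dpep1, a dipeptidase that cleaves the conjugates, was lower under Dox (-2.36) and Ace (-2.27). Its mean level was also lower under 5FU at 24 h, 3.02 CPM against 7.75 CPM in DMSO1. Abcc1, an exporter of conjugates, did not pass in any of the 3. Of 17 genes of acetaminophen metabolism 8 were in the table. Under Ace at 24 h, against 37.2% of all genes, 2 of them were higher, Cyp1a1 (1.17) and Papss1 (0.16), and 2 were lower, Papss2 (-0.76) and Ptgs1 (-0.46). Cyp1a1 oxidizes drugs, and Papss1 and Papss2 make the sulfate donor. At 24 h the mean Cyp1a1 level was 1.51 CPM in Ace, 0.677 CPM in DMSO2 and 14.2 CPM in Dox. The Ace and DMSO2 levels are low, which limits the Ace difference. At 6 h the means were 7.76 CPM in Ace, 3.78 CPM in Dox and 11.1 CPM in DMSO2.

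The genes whose level over the 10 group means was most like each member were named by Pearson's r of mean log2 CPM, among genes with a mean count of at least 100. For Mgst1 they were Emc9 (r = 0.98) and Npl (0.97), for Gstp1 Chtf18 (0.95) and Spc24 (0.94), and for Gstm1 Gstm4 (0.93) and Acot13 (0.93). For Gsta4 they were Snrpe (0.98) and Mrpl52 (0.98), for Gsto1 Rps10 (0.98) and its near copy Rps10l1 (0.98), and for Mgst3 Pccb (0.96) and Rbms2 (0.95). For Gstt1 they were Cryzl2 (0.97) and Man2a2 (0.96), for Gstt2 Mroh1 (0.97) and Frem2 (0.97), and for Gstk1 Rab12 (0.80) and H3f3a (0.79). Over the 65 libraries r was 0.33 for Gstk1 with Rab12 and 0.56 with H3f3a, and 0.74 to 0.96 for the other pairs. The points share their libraries, and these values are a description.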

How the data were processed

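RNA of 65 libraries in 10 groups was analysed. Per the labels and the study's methods, the authors sequenced polyA RNA, assigned reads to rat transcripts with kallisto 0.46.0, summed them to Entrez genes with tximport, removed low-count genes and deposited the estimated counts as whole numbers, which were not normalized. Reads that fit several near-identical genes are divided by estimation.

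Symbols came from the annotation of GRCr8, used for names (14009 of 14554 identifiers), since the deposited counts carry no coordinates. A minimum count of 10 in 1 or more libraries was required, and all genes met it. In edgeR 4.0.16 (R 4.3.3), after TMM scaling, 1 quasi-likelihood model of the 10 groups was fitted and 15 contrasts were tested, and p-values were adjusted over all genes. The model was tested on simulated data for Ace against DMSO2 at 24 h, with 14554 genes: all 50 genes lowered and all 50 raised by 1 on the log2 scale were called (100%), and of those changed by 0.5, 60% of the lowered and 70% of the raised, with 3 false calls. The simulated counts had the same dispersion for every gene and equal means in all groups except for the changed genes. These were a small part of all genes and had mean counts of at least 50. In the data 37.2% of all genes were called in this comparison, and the SD within a group ran from 3.1% to 37.9% of the mean over the members. These recovery rates therefore hold for the simulated setting. Library numbers are names within a group, since the column headers give the group alone. No 2 libraries of a group agreed within sampling noise (lowest chi-square per gene 2.98). Alternatives were DESeq2 1.42.0 (Wald test, size factors), library size, other filters and thresholds, the compared groups alone, and each library left out. Of all genes, 11908 had at least 10 counts in every library.

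The members and lists were chosen with earlier results of these data known. Named genes are the members, up to 3 risers and 3 fallers per list and comparison, and the 2 genes most like each member. Gclm, Abcc1, Nqo1 under Dox, Gstt3 under 5FU and Gstm7 fall outside that rule and were chosen after their values were seen.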

Additional observations from a re-analysis of the deposited data

Results flagged for a closer look

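A library stood far from the rest of its group in 4 of 90 combinations of member and group, where chance gives about 1 in 20. In Dox at 24 h library 7 had the highest Gstm1, 25.5 CPM with the nearest at 15.4 CPM, and the highest Gstk1, 19.1 CPM with the nearest at 14.1 CPM. In DMSO1 at 24 h library 4 had the highest Gstk1, 16.0 CPM with the nearest at 13.7 CPM. In Dox at 6 h library 7 had the highest Gstt1, 4.53 CPM with the nearest at 2.85 CPM.

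The drug effect differed between 24 and 6 h, by edgeR's test of the difference itself, in 9 cases. For 5FU these were Gstt1 (-1.52 on the log2 scale) and Gstt2 (-0.39). For Ace it was Gstp1 (0.64). For Dox they were Mgst1 (-1.08), Mgst3 (-0.95), Gstm1 (-0.75), Gsta4 (-0.74), Gstt1 (-0.61) and Gstp1 (0.46).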

How the results depend on the processing

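No paired analysis was possible because the columns carry no replicate numbers. Counts of members called moved by over 1.5 times in these cases. For 5FU at 6 h (4 called) the count was 7 with DESeq2's size factors, 7 with its Wald test, 1 with library size and 0 with only the compared groups. The counts over all genes were 7013, 7135, 6736 and 5314 in that order. With only the compared groups the count of members was 2 for 5FU at 24 h, 1 for the time difference of 5FU and 2 for that of Ace, and with library size 5 for DMSO1 against DMSO2 at 6 h and 1 for the time difference of 5FU. Over all genes these settings called 8122, 4946, 2697, 2443 and 5654 in that order. At an FDR below 0.1 the count of members was 7 for 5FU at 6 h, 3 for 5FU at 24 h, 1 for Ace at 6 h, 9 for Dox at 6 h, 5 for the controls at 6 h, 4 for the time difference of 5FU and 2 for that of Ace. With a log2 change of at least 1 added, 0 remained for 5FU at 6 h, Ace at 24 h, Dox at 6 h, the controls at 6 h and the time difference of Ace. It was 1 for Dox at 24 h (Mgst1), time in the controls, the time differences of 5FU and Dox, Ace against 5FU and Dox against Ace, and 2 for Dox against 5FU. The shares of all genes at these other thresholds are not given here, so the member counts at them have no share to be set against.

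Leaving out each library gave 1 to 7 for 5FU at 6 h, 1 to 3 for the time difference of 5FU, 4 to 5 for Dox at 6 h and 6 to 6 for Dox at 24 h. The signs that turned belonged to values that had not passed. Gsta4 was 0.013 for 5FU at 24 h and 0.0091 for Ace at 6 h with filterByExpr, and 0.00033 for Ace at 6 h with the compared groups. Mgst3 for Ace at 6 h was -0.026 and Gstp1 for Dox at 6 h -0.0098 with library size. Gstk1 for Dox at 24 h was 0.0095 with DESeq2's size factors, 0.011 with library size and 0.0098 with the Wald test. Without single libraries Gsta4 ran from -0.037 to 0.051 (5FU at 24 h) and -0.031 to 0.032 (Ace at 6 h), Mgst3 from -0.017 to 0.027 (Ace at 6 h), Gstt1 from -0.033 to 0.059 (Ace at 24 h) and Gstk1 from -0.0898 to 0.015 (Dox at 24 h). With library size the mean level in Dox at 6 h was 406 CPM for Gstp1, 19.9 CPM for Gstt2 and 78.0 CPM for Mgst3. The sum of the Gstm rows (0.45) passed between the times in the controls where Gstm1 did not. The causes were not tested. Low counts limit Gstt1 most.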
